A study of Mus musculus with 7 samples.

Results

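Igfbp7 was followed together with 8 genes that mark liver endothelial cells (Cdh5, Stab2, Clec4g, Kdr, Lyve1, Pecam1, Dnase1l3 and Selp) in RNA-seq libraries of neutrophils sorted from injured livers. Igfbp7 was chosen by its level, as one of the most abundant genes of the deposited table, and the other genes were chosen by name, so the level of Igfbp7 is given as a description with no test. All 9 genes were among the 16047 of the table, and all 9 were among the 9594 genes that had a mean of at least 1 RPKM (read density, scaled to the length of the transcript and to the size of the library) and were tested. The comparisons ask whether the other endothelial genes were present at levels that go with that of Igfbp7, and whether any of them differed between the treatment groups.

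C57BL/6 male mice of 8 to 12 weeks were fasted and given 300 mg/kg of acetaminophen, which causes acetaminophen-induced liver injury (AILI), and livers were taken 24 h later. In 3 mice, the antibody MC-21 against CCR2, which ablates the Ly6Chi monocytes that would enter the liver, was injected as 400 µL of conditioned medium with 29 µg/mL, first at 12 h before acetaminophen and then every 24 h, and 4 mice received PBS, so that both groups carried the injury and no uninjured liver was analysed here. From each perfused and collagenase-digested liver 50000 cells were sorted as CD11b+ Ly6Clo CX3CR1-GFP- Ly6G+ neutrophils by the labels, and each mouse gave 1 library made from the 3′ ends of transcripts. The study's methods add CD45, a leukocyte marker, for neutrophils sorted from such livers for PCR. The labels give the strain as C57BL/6, and whether the mice carried the GFP allele that the gate names is not given in the sources used here. The low values of each library showed its depth. In a transcript of 1 kb, 1 RPKM stood for 2.77, 3.33, 2.66 and 3.96 reads in PBS replicates 5 to 8 and for 3.57, 1.59 and 2.78 reads in MC-21 replicates 2 to 4.

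Liver sinusoidal endothelial cells line the capillaries between the hepatocyte plates. They lack a continuous basement membrane, have open pores, and clear macromolecules from blood through scavenger and lectin receptors. IGFBP7 is a secreted glycoprotein of blood vessel walls that belongs to the family of insulin-like growth factor binding proteins, binds insulin-like growth factors only weakly, and is a ligand of CD93. It is a usual endothelial gene, and it is not a neutrophil marker.

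The neutrophil label was checked with 12 genes. S100a9, the calcium-binding protein that fills neutrophil cytosol, was the most abundant gene of the table with a mean of 18381 RPKM over the 7 libraries, and Retnlg and S100a8 were next among these 12 genes, with means of 4587 and 4292 RPKM. Lcn2, Mmp9, Csf3r and Cxcr2 had means of 1061, 310, 300 and 205 RPKM. Itgam, Mmp8, Camp and Ltf were lower, with means of 70.9, 21.3, 20.2 and 4.25 RPKM. Ly6g, the gene of the sorting marker, had 26.7, 16.3, 57.5 and 29.6 RPKM in PBS replicates 5 to 8 and 30.4, 34.1 and 69.0 RPKM in MC-21 replicates 2 to 4. PBS replicate 7 and MC-21 replicate 4 held the highest Ly6g levels, and the same 2 libraries held the lowest levels of Igfbp7. They stood apart in several of the endothelial genes, and the relations that rest on them are given with and without them.

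Igfbp7, on chromosome 5 from 77778265 to 77837070 on the minus strand of mm9, had 3813, 3610, 2643 and 3758 RPKM in PBS replicates 5 to 8, a mean of 3456 ± 549 (SD, n = 4). In MC-21 replicates 2 to 4 it had 3316, 3720 and 2724 RPKM, a mean of 3253 ± 501 (SD, n = 3). It was high in every library. Its place among the 16047 genes was between 11 (PBS replicate 8) and 20 (PBS replicate 7 and MC-21 replicate 4), and by its mean of 3369 RPKM it was number 15. The genes on either side in that order were Actb (mean 4145 RPKM) and G0s2 (3498 RPKM) above and B2m (3266 RPKM) and Rps9 (2788 RPKM) below. These are cytoskeletal actin, an inhibitor of triglyceride breakdown, the light chain of MHC class I and a ribosomal protein. The libraries of Igfbp7 (2643 to 3813 RPKM) overlapped those of Actb (2907 to 5534 RPKM), G0s2 (2005 to 5014 RPKM), B2m (1790 to 4172 RPKM) and Rps9 (2362 to 3319 RPKM). Differences between these genes within each library were not tested. The highest level of Igfbp7 was 1.44 times the lowest, the smallest spread among the 9 genes, and about 7181 to 18058 reads stood behind each value.

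The genes that mark sinusoidal endothelial cells were also found. Clec4g (chromosome 8, 3707064 to 3720651), the C-type lectin LSECtin, had 1509, 1155, 474 and 1362 RPKM in PBS replicates 5 to 8 and 819, 1539 and 583 RPKM in MC-21 replicates 2 to 4. It was number 66 of the table by its mean, and PBS replicate 7 and MC-21 replicate 4 were again the lowest libraries. Dnase1l3 (chromosome 14, 8797047 to 8827087), a secreted nuclease that digests extracellular chromatin, had 495, 398, 261 and 479 RPKM in PBS replicates and 439, 527 and 336 RPKM in MC-21 replicates, in the same order. Its lowest libraries were the same 2. Stab2 (chromosome 10, 86303943 to 86470770), the scavenger receptor that clears hyaluronan, had 83.9, 71.4, 52.3 and 87.8 RPKM in PBS replicates and 77.0, 88.8 and 77.4 RPKM in MC-21 replicates. Only PBS replicate 7 was low here. Lyve1 (chromosome 7, 117994121 to 118006467), a hyaluronan receptor of sinusoidal and lymphatic endothelium that some macrophages also carry, had 261, 90.4, 172 and 82.2 RPKM in PBS replicates and 92.7, 137 and 96.0 RPKM in MC-21 replicates. PBS replicate 5 and PBS replicate 7 were its highest libraries, an order unlike that of Clec4g.

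General endothelial genes were present as well. Pecam1 (chromosome 11, 106515531 to 106611942) encodes the junction protein CD31, which neutrophils and platelets also carry, and had 178, 159, 161 and 218 RPKM in PBS replicates 5 to 8 and 230, 187 and 247 RPKM in MC-21 replicates 2 to 4. The groups overlapped through PBS replicate 8 and MC-21 replicate 3. Cdh5 (chromosome 8, 106625525 to 106668402) encodes VE-cadherin, the adherens junction protein by which endothelial cells are usually defined, and had 238, 112, 143 and 210 RPKM in PBS replicates and 112, 91.6 and 150 RPKM in MC-21 replicates. PBS replicates 5 and 8 were above all other libraries, and the rest overlapped. Kdr (chromosome 5, 76328852 to 76374483), the main receptor for vascular endothelial growth factor (VEGF), had 50.7, 40.8, 24.5 and 54.3 RPKM in PBS replicates and 17.6, 57.1 and 23.2 RPKM in MC-21 replicates. Its highest and its lowest library were both of MC-21 neutrophils.

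Selp (chromosome 1, 166045395 to 166080157), or P-selectin, is stored in endothelial and platelet granules and catches leukocytes once it reaches the surface. It had 3.37, 21.9, 11.8 and 10.1 RPKM in PBS replicates 5 to 8 and 29.3, 21.9 and 37.2 RPKM in MC-21 replicates 2 to 4. By its mean it was the lowest of the 9 genes, although Kdr was lower in MC-21 replicates 2 and 4, and it was the most variable, with an 11.1-fold range, and about 32 reads stood behind the lowest value. The groups overlapped only because PBS replicate 6 (21.92 RPKM) lay just above MC-21 replicate 3 (21.88 RPKM).

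**Figure D1:**
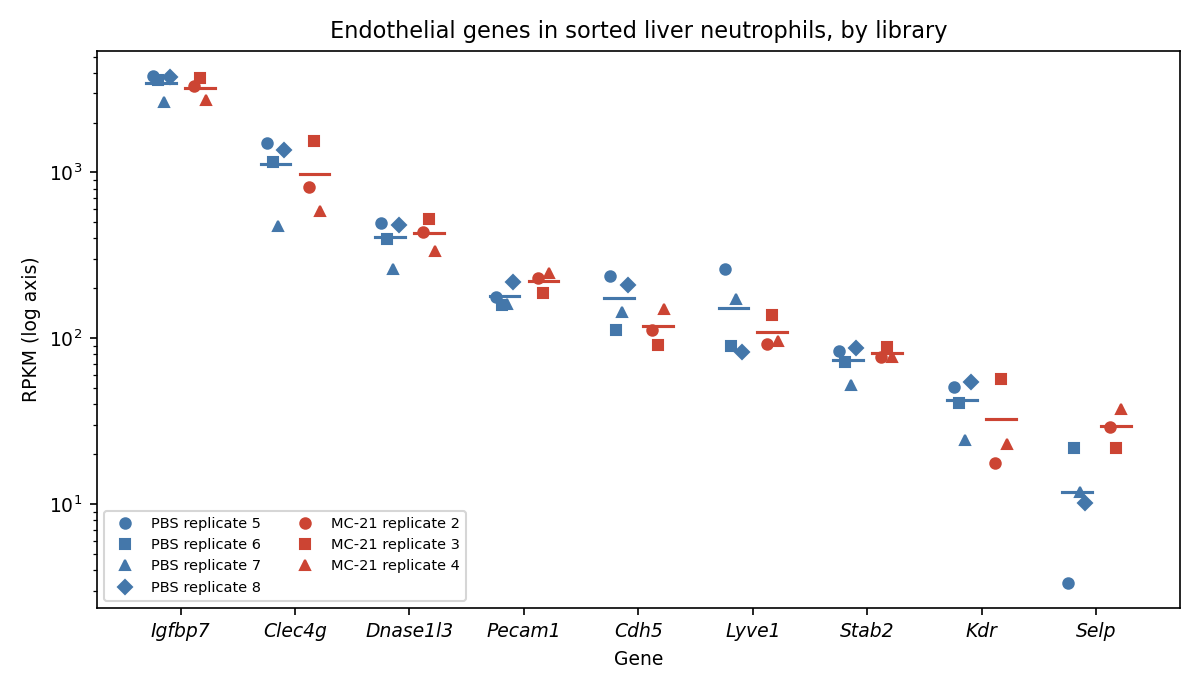
RPKM of the 9 genes in each library on a log axis, with PBS libraries in blue, MC-21 libraries in red and group means as bars; the same symbol in both colours does not pair libraries. Igfbp7 lies between 2643 and 3813 RPKM in every library, and only Igfbp7 lies wholly above the other 8 genes.

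By mean RPKM the order was Igfbp7 (3369), Clec4g (1063), Dnase1l3 (419), Pecam1 (197), Cdh5 (151), Lyve1 (133), Stab2 (76.9), Kdr (38.3) and Selp (19.4). No library of another gene reached the lowest Igfbp7 library, and each Dnase1l3 library was above each Pecam1 library. The ranges of the other 6 pairs of neighbours in this order overlapped. Igfbp7 thus stood at 3.17 times the mean RPKM of Clec4g and 43.8 times that of Stab2. The size of this gap depends on the unit. RPKM divides by transcript length, whereas a library made from 3′ ends takes its reads from the end of a transcript whatever its length, and the longest coding transcripts annotated in mm9 are 1213 bases for Igfbp7, 1242 for Clec4g, 4747 for Dnase1l3 and 8228 for Stab2. With these lengths, the reads behind the values averaged about 12099 for Igfbp7, 5849 for Dnase1l3, 3845 for Clec4g, 2025 for Pecam1, 1867 for Stab2 and 1828 for Cdh5. On this read scale Igfbp7 was still the highest of the 9 genes, at 2.07 times Dnase1l3 and 6.48 times Stab2.

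Across the 7 libraries, Igfbp7 varied most closely with Clec4g and Dnase1l3. Pearson's r of log2(RPKM + 1) was 0.98 for Clec4g (exact permutation test, two-sided, with p = 0.000794 and, adjusted over 8 genes, 0.00635) and 0.92 for Dnase1l3 (exact permutation p = 0.00675, adjusted p = 0.0270). Spearman's rho was 0.89 for Clec4g and 0.86 for Dnase1l3, and each had an adjusted exact permutation p of 0.0952. Kdr and Stab2 had an r of 0.76 and 0.74 (adjusted exact permutation p = 0.0933 for both) and a rho of 0.71 each (adjusted exact permutation p = 0.176 for both). Cdh5 (r = 0.12, rho = 0.32), Lyve1 (r = 0.04, rho = -0.04), Pecam1 (r = -0.15, rho = -0.11) and Selp (r = -0.40, rho = -0.64) showed no relation that passed the test, with adjusted exact permutation p-values for r of 0.584 to 0.942 and for rho of 0.222 to 0.963. With quantile normalization neither relation passed (r = 0.86 for Clec4g and 0.72 for Dnase1l3, adjusted exact permutation p of 0.114 and 0.244). With the mean of each treatment group removed, r was 0.98 for Clec4g, 0.98 for Dnase1l3 and 0.87 for Stab2 (adjusted exact permutation p of 0.00159, 0.00556 and 0.0127), so that Stab2 also passed. With a single library left out, Stab2 passed without PBS replicate 6 (r = 0.80) and Kdr without MC-21 replicate 2 (r = 0.97), each with an adjusted exact permutation p of 0.0444.

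PBS replicate 7 and MC-21 replicate 4 lay farthest from the median of Igfbp7. Without them, r over the other 5 libraries stayed at 0.97 for Clec4g (adjusted exact permutation p = 0.200), and Kdr had an r of 0.97. With 5 libraries the smallest adjusted p that 1 relation among 8 can reach alone is 0.0667. For Dnase1l3 it fell to 0.55 (adjusted exact permutation p = 0.438) and for Stab2 it was 0.58, so that the relation of Igfbp7 and Dnase1l3 rests on these 2 libraries. With a single library left out, Dnase1l3 also missed the threshold without PBS replicate 5, 7 or 8 or MC-21 replicate 3 or 4, with an r of 0.87 to 0.94, whereas Clec4g passed each time with an r of 0.96 to 0.99. Clec4g moved over a wider range than Igfbp7, 3.24-fold against 1.44-fold. Its RPKM was 39.6, 32.0, 17.9 and 36.3% of that of Igfbp7 in PBS replicates 5 to 8 and 24.7, 41.4 and 21.4% in MC-21 replicates 2 to 4. The percentage moved less for Dnase1l3, between 9.89% (PBS replicate 7) and 14.2% (MC-21 replicate 3), and for Stab2, between 1.98% and 2.84%. These ranges, 1.43-fold and 1.44-fold, are about as wide as that of Igfbp7 itself. A gene of constant level would give such a range, so the percentages do not show that either gene kept to Igfbp7. A smaller number of endothelial cells and less of their RNA per cell cannot be told apart in such bulk libraries, and the cell in which Igfbp7 was transcribed was not tested.

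**Figure D2:**
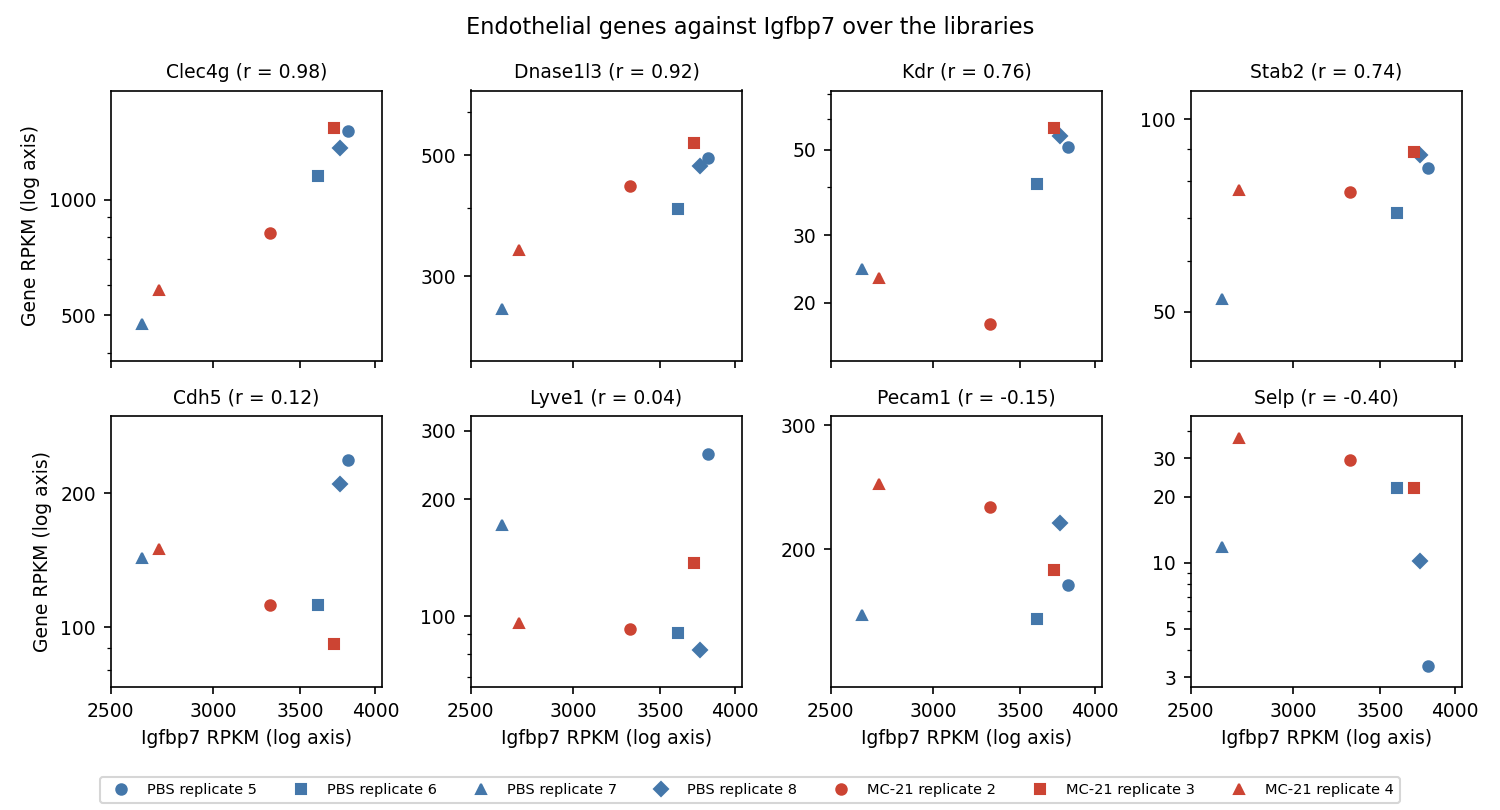
RPKM of each of the other 8 genes against that of Igfbp7 in the 4 PBS (blue) and 3 MC-21 (red) libraries, both axes logarithmic, with Pearson's r of log2(RPKM + 1) above each panel. Clec4g and Dnase1l3 rise with Igfbp7, and PBS replicate 7 and MC-21 replicate 4 form the low end of the Igfbp7 axis.

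RefSeq promoter sequences of build GRCm38.p6, which reach from 250 bases before to 50 after the start of a gene, were at hand for 5 of the 9 genes (Igfbp7, Clec4g, Stab2, Kdr and Selp). They are shown for Igfbp7 and for Clec4g and Stab2, the sinusoidal genes with a promoter entry, to set side by side genes that were abundant together in these libraries. Igfbp7 is chr5:77407996-77408295, Clec4g chr8:3720602-3720901 and Stab2 chr10:87007893-87008192, all on the minus strand and all written 5′ to 3′ along the gene. Capitals mark AGGAAG or its reverse complement CTTCCT, letters around the GGAA core that ETS factors of endothelial cells bind.
Igfbp7: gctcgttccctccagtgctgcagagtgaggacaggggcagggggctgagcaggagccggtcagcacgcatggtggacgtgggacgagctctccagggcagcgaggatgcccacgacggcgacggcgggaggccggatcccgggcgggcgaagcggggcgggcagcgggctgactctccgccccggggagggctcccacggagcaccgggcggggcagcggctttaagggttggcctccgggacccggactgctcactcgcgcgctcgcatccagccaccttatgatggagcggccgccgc
Clec4g: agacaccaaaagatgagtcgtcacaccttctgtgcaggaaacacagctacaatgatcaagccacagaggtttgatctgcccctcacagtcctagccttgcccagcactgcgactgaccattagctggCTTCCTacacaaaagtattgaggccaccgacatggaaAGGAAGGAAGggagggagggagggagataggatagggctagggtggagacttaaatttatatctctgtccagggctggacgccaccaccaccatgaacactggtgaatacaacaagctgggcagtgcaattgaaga
Stab2: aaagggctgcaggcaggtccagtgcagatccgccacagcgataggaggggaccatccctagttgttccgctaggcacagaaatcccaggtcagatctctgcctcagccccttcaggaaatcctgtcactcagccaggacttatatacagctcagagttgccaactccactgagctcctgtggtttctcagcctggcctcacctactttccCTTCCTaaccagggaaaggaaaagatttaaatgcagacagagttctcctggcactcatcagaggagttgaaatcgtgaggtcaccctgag

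The Igfbp7 promoter was the most GC-rich of the 5, with 73.3% G or C and 33 CpG, against a median of 52.7% and 7 CpG over the 27025 promoters of this length. Clec4g had 51.0% G or C and 4 CpG, Stab2 53.0% and 4, Selp 51.7% and 4, and Kdr 60.7% and 19. AGGAAG in either strand occurred 3 times in Clec4g, with 2 of these matches overlapping, 2 times in Selp and 1 time in Stab2, and the letters were not in the windows of Igfbp7 and Kdr. It occurs in 35.1% of all promoters of this length. The letters AGATAA of GATA factors, in either strand, and TATAAA on the gene's strand were in none of the 5 windows, and they are in 11.4% and 8.88% of all promoters. Other forms of the GATA letters were not searched. These matches describe the sequence and are not binding sites.

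MC-21 and PBS neutrophils were compared to ask whether the endothelial genes changed when Ly6Chi monocytes were ablated. Igfbp7 had a log2 fold change of -0.08 (MC-21 minus PBS, standard error 0.17, 95% interval -0.46 to 0.29, adjusted p = 0.847 from limma), and an exact permutation test of its RPKM gave p = 0.571, where 0.0286 is the smallest p that 4 libraries against 3 allow. In limma's fit 0 of the 9 genes had an adjusted p under 0.05, against 0.625% of all 9594 genes tested, and 1 of the 9 (Selp) had an unadjusted p under 0.05, against 14.7%. Without the trend, limma also called 0 of the 9. In 0 of the 9 genes the groups did not overlap, against 13.3% of all genes tested. The median log2 fold change of the 9 genes was -0.08, beside -0.15 over all genes tested.

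Selp had the largest difference, a log2 fold change of 1.45 (standard error 0.47, 95% interval 0.40 to 2.50, adjusted p = 0.218 from limma). PBS libraries averaged 11.8 ± 7.67 RPKM (SD, n = 4) and MC-21 libraries 29.5 ± 7.69 RPKM (SD, n = 3). Selp is among the genes the study displays from these libraries, so its direction here is not independent evidence. Cdh5 averaged 176 ± 58.4 RPKM in PBS libraries (SD, n = 4) against 118 ± 29.4 RPKM in MC-21 libraries (SD, n = 3), a log2 fold change of -0.54 with an interval of -1.15 to 0.07 (adjusted p = 0.396). Pecam1 had 179 ± 27.4 and 221 ± 31.0 RPKM, a log2 fold change of 0.31 with an interval of -0.05 to 0.67 (adjusted p = 0.413). The other 5 genes had log2 fold changes of -0.49 (Kdr), -0.34 (Lyve1), -0.19 (Clec4g), 0.11 (Dnase1l3) and 0.16 (Stab2), and their adjusted p-values were between 0.607 and 0.866. The intervals were wide for Cdh5, Clec4g (-1.15 to 0.76), Lyve1 (-1.17 to 0.50) and Kdr (-1.38 to 0.39), so that a 2-fold decrease in MC-21 neutrophils lay within each of them. Those of Igfbp7, Pecam1, Stab2 (-0.27 to 0.58) and Dnase1l3 (-0.43 to 0.64) held no 2-fold change.

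**Figure D3:**
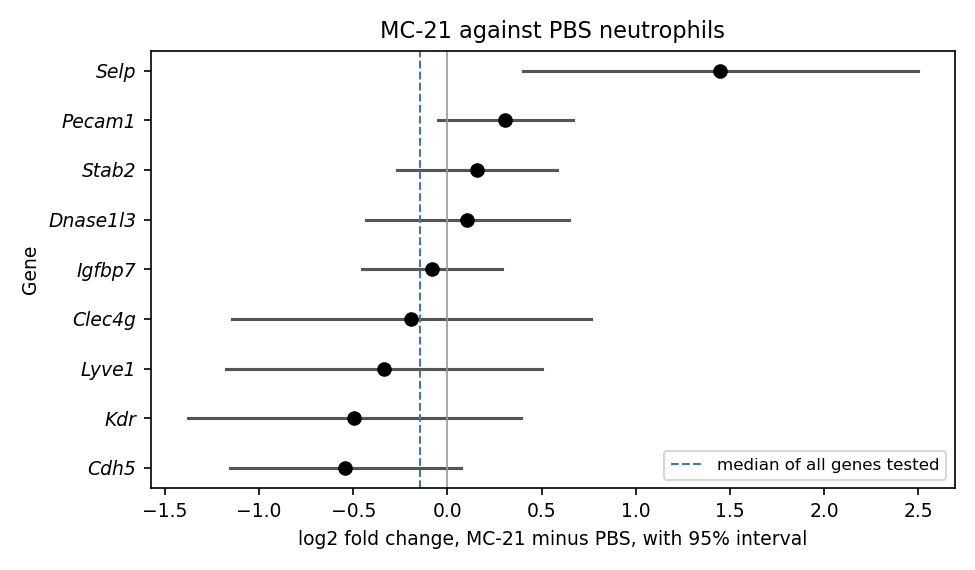
Log2 fold change of the 9 genes, MC-21 minus PBS, as points with 95% intervals from limma, and the median of all genes tested (-0.15) as a dashed line. The interval of Selp (0.40 to 2.50) lies above 0, and those of the other 8 genes include 0.

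Endothelial genes were looked at more widely in 3 lists. These hold 8 of the 9 genes, all but Igfbp7, and 54 other genes of the table. The counts and levels below include the 8. The pan-endothelial list has 30 genes, all at 1 RPKM or more, and 10 of them were at or above 100 RPKM. The highest were Egfl7, a vessel matrix protein (mean 397 RPKM), Eng, a TGF-β co-receptor (343 RPKM), and Ramp2, a partner of the adrenomedullin receptor (319 RPKM). Of the 18 sinusoidal genes, 16 reached 1 RPKM and 6 reached 100 RPKM. Clec4g led, with Fcgr2b (464 RPKM), the inhibitory Fc receptor that myeloid cells also carry, and Dnase1l3 behind it. Among 14 genes of large vessel, activated and lymphatic endothelium 10 reached 1 RPKM and 1 reached 100 RPKM. Plvap, of the diaphragms of endothelial pores, had 135 RPKM, Icam1 55.2 RPKM and the chemokine scavenger Ackr1 41.8 RPKM. Together the lists hold 62 genes of the table, with a median level of 29.6 RPKM and 17 genes at or above 100 RPKM, whereas the median over the table was 2.16 RPKM and 4.35% of its genes reached 100 RPKM. Gpihbp1, the lipase anchor of capillary endothelium, is on none of the lists and was picked after its values were seen. Its mean of 1805 RPKM made it number 33 of the table, and its log2 fold change was -0.56 (adjusted p = 0.433 from limma). Fabp4, a fatty acid carrier of capillary endothelium, fat cells and macrophages, was added in the same way. With a mean of 1314 RPKM it was number 48, and it rose from 780 ± 161 RPKM in PBS libraries (SD, n = 4) to 2026 ± 560.0 RPKM in MC-21 libraries (SD, n = 3), a log2 fold change of 1.36 (adjusted p = 0.0312 from limma), with no overlap between the groups. The study also picked Fabp4 from these libraries, so its direction is not independent evidence.

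**Figure D4:**
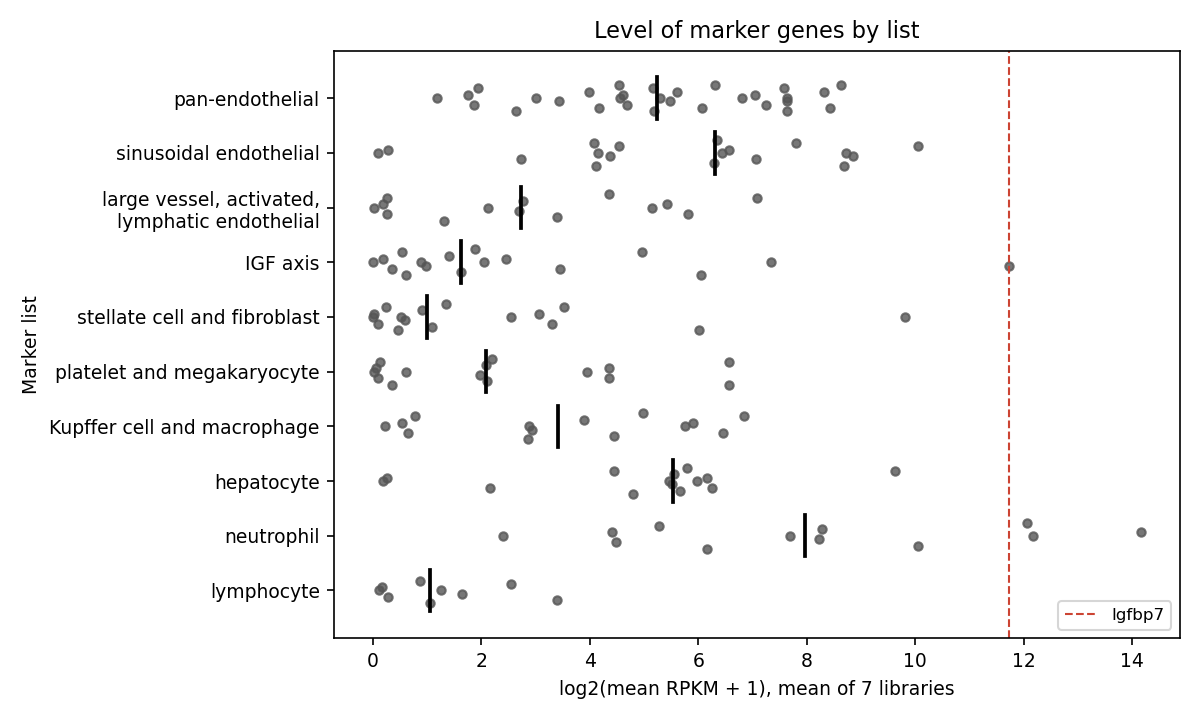
Mean level of each marker gene over the 7 libraries, as log2(mean RPKM + 1), by list, with the median of a list as a black bar and Igfbp7 as a dashed line. The sinusoidal list has a higher median (78.6 RPKM) than the stellate cell and fibroblast list (0.993 RPKM), and only neutrophil genes lie to the right of Igfbp7.

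In MC-21 against PBS neutrophils, 0 of the 56 genes of the 3 endothelial lists that were tested had an adjusted p under 0.05 in limma's fit. Of these 56, 40 had a lower mean of log2 values in MC-21 neutrophils, 71.4% beside 69.4% of all genes tested, and their median log2 fold change was -0.28 beside -0.15. The lists hold the 8 endothelial genes described above, and the 48 others had a median of -0.29, with 36 lower. An unadjusted p under 0.05 was reached by 13 of the 56, with 9 lower and 4 higher, beside 14.7% of all genes, and in 9 the groups did not overlap, beside 13.3% of all genes. These 9 were Ackr1, Adgrf5, Adgrl4, Ccl21a, Mmrn2, Nos3, Plvap and Sox18 on the low side in MC-21 neutrophils and Flt1 on the high side, named here after their values were seen. Ccl21a has near-identical copies in the genome, so its reads may be shared. Ackr1 averaged 53.1 ± 9.39 RPKM in PBS libraries (SD, n = 4) against 26.6 ± 12.3 RPKM in MC-21 libraries (SD, n = 3), a log2 fold change of -1.04 (adjusted p = 0.145). Flt1, a VEGF receptor, had 28.4 ± 5.55 and 43.9 ± 2.08 RPKM, a log2 fold change of 0.63 (adjusted p = 0.172). Vwf, which shares its endothelial storage granules with P-selectin and was also singled out after its values were seen, had 1.19 to 4.98 RPKM in PBS libraries and 3.84 to 13.8 RPKM in MC-21 libraries (log2 fold change 1.24, adjusted p = 0.244).

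Over the 5859 other genes that averaged 5 RPKM or more, r with Igfbp7 across the 7 libraries had a median of 0.13, and 18.1% of the genes had an r above 0.5. Among the sinusoidal genes the median was 0.67 and 14 of 16 were above 0.5, and among the pan-endothelial genes it was 0.53 with 15 of 26 above 0.5. Genes of large vessel, activated and lymphatic endothelium had a median of 0.01, with 1 of 8 above 0.5. High values were not found in endothelial lists alone. Of the hepatocyte genes 5 of 11 were above 0.5 (median 0.30), with Ttr at 0.84 and Serpina1c at 0.81, and of the Kupffer cell and macrophage genes 3 of 10 (median 0.32), with Clec4f at 0.85. The VEGF and angiopoietin axis had 4 of 11 above 0.5. Of these, Kdr (0.76) and Flt4 (0.62) are also on endothelial lists, and Nrp1 (0.79) and Vegfb (0.56) are not. Platelet genes had 1 of 5, Clec1b (0.54), which is also on the sinusoidal list. Stellate cell and IGF axis genes had 0 of 5 and 0 of 4. These values describe the libraries, which share their depth and composition between genes, and carry no test. The 5 genes most like Igfbp7 were Cox10 (r = 0.99), Clec4g (0.98), Mplkip (0.97), Kxd1 (0.97) and Alkbh6 (0.97). The 4 besides Clec4g had means of 5.92 to 48.2 RPKM. All 11 neutrophil genes of that level had an r below 0, with a median of -0.49, whereas 39.6% of all genes ranked did. The summed level of the 12 neutrophil genes was 31679, 18548, 27178 and 20733 RPKM in PBS replicates 5 to 8 and 28486, 36309 and 42097 RPKM in MC-21 replicates 2 to 4. In limma's fit 0 of these 12 had an adjusted p under 0.05, beside 0.625% of all genes tested. An unadjusted p under 0.05 was reached by 4, with 1 lower and 3 higher in MC-21 neutrophils, beside 14.7% of all genes tested. The median log2 fold change of the 12 was 0.41, beside -0.15 over all genes tested.

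**Figure D5:**
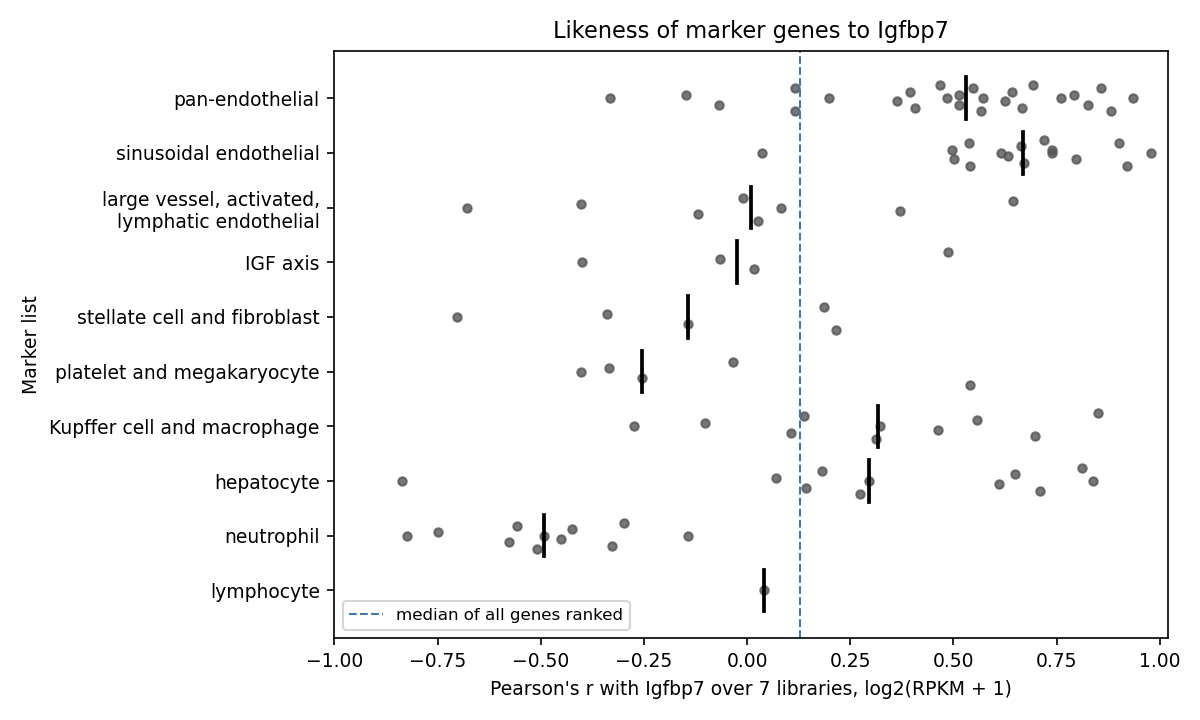
Pearson's r with Igfbp7 over 7 libraries for each marker gene that averaged 5 RPKM or more, by list, with list medians as black bars and the median of all 5859 genes ranked (0.13) as a dashed line. Sinusoidal genes lie mostly to the right (median 0.67), and all 11 neutrophil genes lie below 0.

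Within the insulin-like growth factor axis Igfbp7 stood alone in level. Of the other binding proteins, Igfbp4 had a mean of 162 RPKM and Igfbp6 65.7 RPKM, Igfbp2 had 3.13 RPKM, and Igfbp1, Igfbp3 and Igfbp5 were between 0.272 and 0.850 RPKM. Of the 10 genes of this axis that were tested 0 had an adjusted p under 0.05, beside 0.625% of all genes, and 6 had an unadjusted p under 0.05, with 4 lower and 2 higher in MC-21 neutrophils, beside 14.7% of all genes tested. Igfbp6 averaged 49.5 ± 10.8 RPKM in PBS libraries (SD, n = 4) against 87.2 ± 18.3 RPKM in MC-21 libraries (SD, n = 3), a log2 fold change of 0.81 (adjusted p = 0.131 from limma), whereas the log2 fold change of Igfbp4 was -0.63 (adjusted p = 0.249). Cd93, the receptor of IGFBP7, had 36.1 ± 8.26 and 22.6 ± 2.32 RPKM (log2 fold change -0.63, adjusted p = 0.205). In Igfbp6, Cd93 and Igf1r, which were named after their values were seen, the groups did not overlap, 3 of the 10 genes beside 13.3% of all genes. In the VEGF and angiopoietin axis 0 of 12 genes tested had an adjusted p under 0.05 and 1, Flt1, an unadjusted p under 0.05, beside 0.625% and 14.7% of all genes tested. Flt4, the VEGF receptor of lymphatic and sinusoidal endothelium, led this list with a mean of 86.2 RPKM.

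Markers of other liver cells that could hold Igfbp7, Pecam1 or Selp transcripts were read in the same libraries. Stellate cells and fibroblasts also use Igfbp7. Of their 16 genes 8 reached 1 RPKM, and Reln was at 0 in every library. Lrat, Pdgfrb and Col1a1 had means of 0.0687, 0.182 and 1.12 RPKM. Ecm1, Acta2, Dcn and Des had higher means, of 8.92, 7.37, 4.84 and 1.54 RPKM. Sparc, a matrix protein that endothelial cells share, led that list with 896 RPKM, ahead of Bgn (63.8 RPKM) and Tagln (10.6 RPKM), and of its 8 genes tested 0 had an adjusted p under 0.05, beside 0.625% of all genes tested, and 2 an unadjusted p under 0.05, beside 14.7%. Its summed level was between 820 and 1174 RPKM. Platelets carry Selp and Pecam1. Of 14 platelet genes other than Selp 8 reached 1 RPKM, led by Clec1b, which Kupffer cells share (93.8 RPKM), Pf4 (93.4 RPKM) and Nrgn (19.6 RPKM), while Itga2b and Gp9 had means of 3.32 and 2.93 RPKM and Gp5 of 0.101 RPKM. In Pf4 the groups did not overlap and the MC-21 libraries were lower (log2 fold change -1.26, adjusted p = 0.194), whereas Itga2b did not overlap either and was higher (0.42, adjusted p = 0.362). These were 2 of the 8 genes tested, beside 13.3% of all genes tested. The median log2 fold change of these 8 genes was 0.20, with 4 lower, and Clec1b, Gp9 and Itgb3 had values of 0.68, 0.66 and 0.48 (adjusted p of 0.306, 0.501 and 0.597). None of the 8 had an adjusted p under 0.05, beside 0.625% of all genes tested, and 2 had an unadjusted p under 0.05, Pf4 lower and Clec1b higher, beside 14.7%. The 14 genes summed to between 179 and 339.6 RPKM.

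Of the Kupffer cell and macrophage genes, 4 of 10 tested fell in MC-21 neutrophils, beside 0.625% of all genes called in either direction. An unadjusted p under 0.05 in limma's fit was reached by 8 of the 10, all lower, beside 14.7% of all genes tested. In 5 of the 10 the groups did not overlap, with MC-21 libraries lower, beside 13.3% of all genes tested. The complement genes C1qa, C1qb and C1qc and the Fc receptor gene Fcgr1 had an adjusted p under 0.05 (limma), with log2 fold changes of -1.30, -1.36, -1.13 and -2.22. The study also picked these genes from the same libraries, so their direction here is not independent evidence. The list summed to 468 to 535 RPKM in PBS libraries and to 201 to 274 RPKM in MC-21 libraries, and of the genes that mark Kupffer cells Marco, Cd5l and Clec4f had means of 30.6, 20.9 and 6.67 RPKM and log2 fold changes of -0.51, -0.67 and -0.28 (adjusted p of 0.307, 0.285 and 0.794), and Timd4 and Vsig4 had means of 0.455 and 0.708 RPKM. Hepatocyte genes were led by Hp, which neutrophils also make (787 RPKM), Apoa1 (75.7 RPKM) and Trf (70.6 RPKM), and 0 of 12 had an adjusted or an unadjusted p under 0.05, beside 0.625% and 14.7% of all genes tested. Their summed level was between 1159 and 1484 RPKM. Lymphocyte genes were low, with Cd79b (9.48 RPKM) and Nkg7 (4.83 RPKM) highest, 0 of 5 with an adjusted and 2 with an unadjusted p under 0.05 beside the same shares, and a summed level between 11.7 and 39.7 RPKM. The sinusoidal list summed to 4011, 3296, 1979 and 3545 RPKM in PBS replicates 5 to 8 and to 2958, 4167 and 2052 RPKM in MC-21 replicates 2 to 4, with the 2 libraries low in Igfbp7 lowest again. The part of endothelial cells or their RNA in the neutrophil libraries, and in any difference between the groups, was not tested.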

How the data were processed

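Neutrophils of 4 PBS- and 3 MC-21-treated livers were measured by RNA-seq. The authors mapped reads to mm9 with HISAT 0.1.5 and deposited RPKM values per gene from Partek Genomics Suite 6.6, and how shared reads were counted is not given in the sources used here. Each column was matched to its mouse by label. Depth was read from genes with 1 annotated transcript in the mm9 annotation (GENCODE), whose low RPKM values fall on multiples of 1 read (for 73.3 to 78.2% of these values the nearest whole number was under 0.1 reads away). Reads per gene are estimates from the longest coding transcript.

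MC-21 minus PBS differences were computed on log2(RPKM + 1), a scale that understates changes of low genes, for the 9594 genes whose mean was 1 RPKM or more, with limma 3.58.1 (eBayes with a trend) in R 4.3.3 and Benjamini-Hochberg adjustment over all of them. In simulated data for these genes, limma called 179 of 200 genes changed by 2 on the log2 scale and 7 unchanged genes. Correlations used all 5040 orders of the 7 libraries. Correlations ran in scipy 1.17.1 under Python 3.11.15, on tables read by pandas 2.3.3 with numpy 2.4.6. Figures were drawn in matplotlib 3.10.9.

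The members, the 11 gene lists and the tests were chosen with earlier results of these data known. By a set rule the text names the members, the 3 highest and every called gene of each list, the genes next to Igfbp7 in level, and the 5 most correlated with it, and some list genes are not reported here. All other genes named, such as Vwf, Flt1, Gpihbp1, Fabp4, Ly6g, and further members of the lists (other IGF binding proteins, and further markers of neutrophils and other cells), were chosen after their values were seen. Alternatives were a pseudocount of 0.1, no filter, a minimum mean of 5 RPKM, median centring, quantile normalization, limma without a trend, removal of group means for correlations, and leaving out libraries. Libraries came from separate mice and were taken as replicates. Genes with near-identical copies may share reads.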

Additional observations from a re-analysis of the deposited data

How the results depend on the processing

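None of the 9 genes was called under any alternative, whereas the count over all genes tested was 60 (41 lower and 19 higher in MC-21 neutrophils) as reported, 4 without a filter on low values, and between 9 (without PBS replicate 8) and 102 (without PBS replicate 6) with each library left out. Centring on the median shifted the median log2 fold change from -0.15 to 0.02 and gave 30 lower and 44 higher genes, and quantile normalization gave 29 lower and 26 higher. The cause was not tested. Centring reversed Igfbp7 to a log2 fold change of 0.080. With a library left out, Igfbp7 lay between -0.21 and 0.039 (without MC-21 replicate 4), Clec4g between -0.58 and 0.12 (without MC-21 replicate 4) and Dnase1l3 between -0.094 (without PBS replicate 7) and 0.28, and Dnase1l3 was also below 0 without MC-21 replicate 3. The other 112 of 117 alternative values of the 9 genes kept their direction and stayed uncalled. With a library left out, Selp was between 1.01 (without PBS replicate 5) and 1.81, Kdr between -0.98 and -0.16, and Lyve1 between -0.57 and -0.021. Stab2 lay between 0.0026 and 0.25, Cdh5 between -0.74 and -0.38, and Pecam1 between 0.22 and 0.42. Members whose groups did not overlap numbered 1 (Selp) after centring and after quantile normalization, beside 11.3% and 11.1% of all genes. With a library left out they numbered between 0 and 3, and all genes between 1534 and 2329, or 16.0% to 24.3% of those tested. The 3 were Kdr, Pecam1 and Selp without MC-21 replicate 3, where the groups did not overlap in 23.4% of all genes, beside 13.3% as reported. The number of relations with Igfbp7 that passed was 2 as reported, 0 with quantile normalization (r of 0.86 for Clec4g and 0.72 for Dnase1l3), 0 over 5 libraries (where 1 relation alone cannot go below an adjusted p of 0.0667), 3 with group means removed (Stab2 added), and with a library left out between 1 and 3 (3 without PBS replicate 6, with Stab2, or MC-21 replicate 2, with Kdr). Dnase1l3 no longer passed without PBS replicate 5, 7 or 8 or MC-21 replicate 3 or 4 (r of 0.87 to 0.94). The weak r of Cdh5, Lyve1 and Pecam1 changed sign. After centring they were -0.050, -0.017 and 0.10, Lyve1 had -0.22 with quantile normalization and -0.023 with group means removed, and with a library left out they lay between -0.18 and 0.37, -0.46 and 0.38, and -0.70 and 0.30. Low genes are limited by depth, at 1.59 reads per RPKM in a 1 kb transcript in MC-21 replicate 3. No paired analysis was possible because the groups share no replicate numbers.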
